A study of Homo sapiens with 6 samples.

Results

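The EGFR family comprises 4 receptor genes (EGFR, ERBB2, ERBB3 and ERBB4) and, among its ligand genes, the 6 described here (AREG, EREG, TGFA, HBEGF, BTC and EGF). These 10 genes were chosen by name, with earlier results of these data known. Each had 1 row among the 60835 unique gene names of the deposited count table. RNA from SW620, a colon cancer cell line established from a lymph node metastasis, was sequenced as 6 libraries. Of these, 3 came from cells carrying a hairpin vector against DNM1, described as a stable knockdown (shDNM1, batch_B in the labels), and 3 from cells carrying a control vector, labelled wild type (shControl, batch_A). Both sets were grown alike in high-glucose DMEM with serum. Because every shDNM1 library was in batch_B and every shControl library in batch_A, the vector and the batch cannot be told apart in any difference given here. No label says that libraries of a set came from separate cultures or transductions, so each p-value reflects library-to-library spread alone, and that spread may be technical.

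EGFR family receptors sit in the plasma membrane and signal as pairs through RAS to ERK and through PI3K to AKT. EGFR and ERBB4 bind ligands and carry an active kinase, ERBB2 has no known ligand and acts as a partner, and ERBB3 binds neuregulins but has an impaired kinase and recruits PI3K. Ligands are made as membrane-anchored precursors and released by ADAM proteases, and in colorectal cancer AREG and EREG are studied as markers of dependence on EGFR. Dynamins act at the step where vesicles carrying these receptors are pinched off the membrane.

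The library totals ran from 12844534 to 13537519 counts. The targeted gene DNM1 had 126, 97.8 and 125 CPM (read counts scaled to a common library total by TMM) in the libraries labelled shDNM1, against 127, 127 and 133 CPM in the shControl libraries. It differed by -0.15 on the log2 scale (SE 0.083), short of the threshold (edgeR quasi-likelihood, adjusted p = 0.189), while without shDNM1 replicate 1 it was -0.20 and passed (adjusted p = 0.0399). Without shDNM1 replicate 2, the library with the lowest DNM1 level, it was -0.04 (adjusted p = 0.718). The directions below are therefore between libraries as labelled, with no clear drop of DNM1 mRNA behind them. The 13 colon epithelial markers summed to 12045 to 12920 TPM (a level scaled for gene length and library total) in shDNM1 and 10696 to 11407 TPM in shControl, with CDX1 at 0. Of the 11 that could be tested, 6 rose and 1 fell (log2 fold changes from -0.81 to 1.30, median 0.25). Over all genes tested, 15.6% rose and 16.2% fell, with a median of -0.01. The 12 markers of leukocytes, endothelium, fibroblasts and muscle summed to 16.4 to 20.1 TPM in shDNM1 and 15.0 to 17.1 TPM in shControl, with CD3E at 0. Only 4 of these could be tested, of which PDGFRB and VWF were called higher and 0 lower, beside those same shares over all genes. The part of either marker list in any result was not tested. In bulk RNA, fewer cells making an mRNA and less of it in each cell cannot be told apart.

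Of the 10 members, 6 had enough reads to be tested. EREG and TGFA, both ligand genes, rose in the libraries labelled shDNM1, the receptor gene ERBB2 fell, and AREG, HBEGF and ERBB3 did not pass the test. Thus 3 of 6 tested members were called at an adjusted p under 0.05, where 31.9% of the 16744 genes tested were called. Those called higher made up 15.6% of all genes and those called lower 16.2%. The median log2 fold change was 0.12 over the 6 tested members and -0.01 over all genes tested. EGFR, ERBB4, BTC and EGF had too few reads in both sets for the test.

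The promoter windows of EREG, AREG and ERBB2 are shown because EREG and ERBB2 changed most among the 6 tested members and AREG is the neighbour of EREG. Each runs from 250 bases before to 50 bases after the gene start in RefSeq on build GRCh38.p14, 5′ to 3′ on the gene's own strand. Capitals mark every match, on either strand, to 9 motifs: the cAMP response element TGACGTCA and its core TGACG (which lies inside it), the AP-1 pattern TGANTCA, the TEAD site GGAATG, the GC box GGGCGG, the TATA box TATAAA, the E-box CACGTG, the ETS site CCGGAAG and the TCF site CTTTGAT. In the AP-1 pattern N stands for any base, so it is looser than a strict site.
EREG (chr4:74364895-74365194, plus strand): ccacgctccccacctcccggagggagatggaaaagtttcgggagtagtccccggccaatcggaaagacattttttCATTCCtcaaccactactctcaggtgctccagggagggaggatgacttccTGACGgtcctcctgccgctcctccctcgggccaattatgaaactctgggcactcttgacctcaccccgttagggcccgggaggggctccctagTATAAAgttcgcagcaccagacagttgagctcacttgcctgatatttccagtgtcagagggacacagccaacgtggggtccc
AREG (chr4:74444886-74445185, plus strand): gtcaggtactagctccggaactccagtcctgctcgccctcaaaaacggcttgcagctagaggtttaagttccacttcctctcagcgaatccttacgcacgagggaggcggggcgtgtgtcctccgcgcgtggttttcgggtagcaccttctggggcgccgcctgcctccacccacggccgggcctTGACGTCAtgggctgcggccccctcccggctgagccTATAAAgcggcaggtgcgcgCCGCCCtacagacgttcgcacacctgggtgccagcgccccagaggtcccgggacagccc
ERBB2 (chr17:39687844-39688143, plus strand): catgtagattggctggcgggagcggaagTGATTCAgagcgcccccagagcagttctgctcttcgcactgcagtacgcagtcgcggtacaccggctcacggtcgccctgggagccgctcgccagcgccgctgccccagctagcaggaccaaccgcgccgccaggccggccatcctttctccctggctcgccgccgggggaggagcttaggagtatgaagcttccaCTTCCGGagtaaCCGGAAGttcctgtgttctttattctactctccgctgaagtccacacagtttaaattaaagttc
The EREG and AREG windows both held a TATA box, at positions -32 and -29 from the start, which was present in 11.5% of 35116 windows of that length. AREG held the full cAMP response element at position -65, found in 1.85% of windows, whereas EREG held only the core, at position -125, found in 24.6%. A TEAD match lay at position -175 in EREG (14.0% of windows). The ERBB2 window shown lies inside the deposited bounds of PGAP3, and any other start of ERBB2 was not searched. The deposited ERBB2 start, at 39687914, falls within this window, upstream of the RefSeq start that positions count from. That window held no TATA box. It had 2 ETS matches, at positions -26 and -14 (10.3% of windows had at least 1). A match to the AP-1 pattern lay at position -222, with the letters TGATTCA (7.71% of windows matched the pattern). A match is a run of letters and was not tested for binding. RefSeq windows were found for 9 members, and ERBB3 was the member without one.

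ERBB2, the receptor with no known ligand (ENSG00000141736, GRCh38 chromosome 17, 39687914 to 39730426, plus strand), had 44.1, 42.1 and 46.5 CPM in the libraries labelled shDNM1, against 83.6, 87.0 and 84.6 CPM in the shControl libraries. All shDNM1 values lay far below all shControl values, and the libraries of each set lay close together. The level was 1.92-fold lower (log2 fold change -0.94, SE 0.071, 95% interval -1.09 to -0.79, adjusted p = 1.90e-08). The change in ERBB2 was exceeded in size by 6.38% of the genes tested.

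ERBB3, the receptor with an impaired kinase (ENSG00000065361, chromosome 12, 56076799 to 56103505, plus strand), had 270, 262 and 264 CPM in shDNM1 and 264, 263 and 271 CPM in shControl. The ranges of the sets overlapped almost completely. Its log2 fold change was -0.01 (SE 0.058, adjusted p = 0.957), with a 95% interval from 0.916-fold to 1.08-fold, so a change of the size seen in ERBB2 lay outside the interval.

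EGFR, the receptor that gives the family its name (ENSG00000146648, chromosome 7, 55019017 to 55211628, plus strand), had 1, 4 and 3 counts in the shDNM1 libraries and 7, 6 and 4 counts in the shControl libraries. Both sets were close to the floor of detection, and the shDNM1 total of 8 counts was, relative to library totals, 0.471 of the shControl total of 17, with an exact 95% interval from 0.176 to 1.152 that covers counting error only. The interval includes 1, so no difference in EGFR was detected at this depth. ERBB4, the neuregulin receptor with an active kinase (ENSG00000178568, chromosome 2), had 0, 0 and 1 counts in shDNM1 and 0 in each shControl library, where 3 counts over the 3 shControl libraries, the limit that a total of 0 allows, correspond to 0.0765 CPM.

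**Figure D1:**
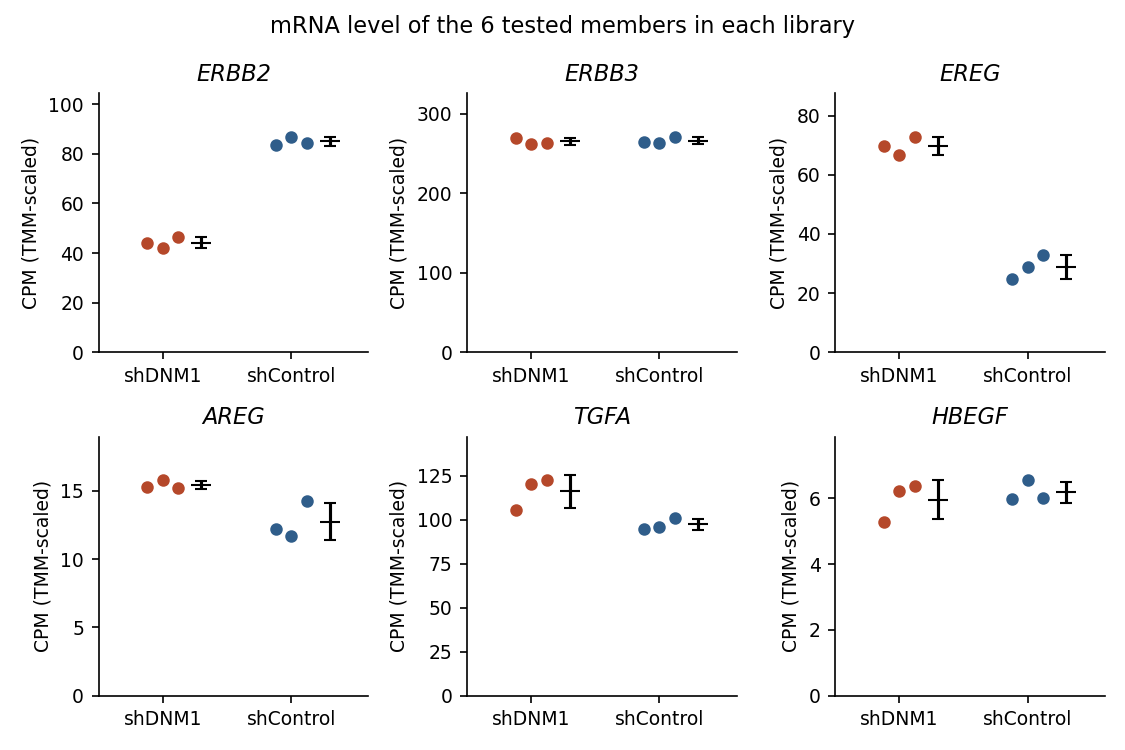
TMM-scaled CPM of the 6 tested members in each library, with each panel's vertical axis starting at 0; coloured points are libraries and the black bar gives mean ± SD (n = 3). ERBB2 lies at 42.1 to 46.5 CPM in shDNM1 and 83.6 to 87.0 CPM in shControl, EREG at 66.6 to 72.9 CPM in shDNM1 and 24.8 to 32.9 CPM in shControl, and ERBB3 and HBEGF overlap between the sets.

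Among the ligands, EREG, which encodes epiregulin, a ligand of EGFR and ERBB4 (ENSG00000124882, chromosome 4, 74365145 to 74388749, plus strand), had 69.7, 66.6 and 72.9 CPM in the libraries labelled shDNM1, against 24.8, 28.7 and 32.9 CPM in the shControl libraries. Every shDNM1 library lay above every shControl library by a wide margin, and the shControl libraries were the more spread relative to their level. EREG was 2.42-fold higher, with a log2 fold change of 1.27 (SE 0.092, 95% interval 1.08 to 1.47, adjusted p = 1.20e-08) and ranked 167 from the top among the 16744 genes by log2 fold change.

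AREG, which encodes amphiregulin, an EGFR ligand (ENSG00000109321, chromosome 4, 74445136 to 74455005, plus strand), had 15.3, 15.8 and 15.2 CPM in shDNM1 and 12.2, 11.7 and 14.3 CPM in shControl. Every shDNM1 library lay above every shControl library, with shControl replicate 3 nearest to them. At 0.28 on the log2 scale (SE 0.12) the difference missed the threshold (adjusted p = 0.0954), and its unadjusted 95% interval ran from 1.01-fold to 1.45-fold. AREG did not pass under any of the 18 other settings tried, with adjusted p from 0.0729 to 0.278.

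TGFA, which encodes transforming growth factor alpha, an EGFR ligand (ENSG00000163235, chromosome 2, 70447284 to 70554193, minus strand), had 106, 120 and 123 CPM in shDNM1 and 94.98, 96.0 and 101 CPM in shControl. The sets did not overlap, although shDNM1 replicate 1 stood only a little above the highest shControl library. TGFA was 1.19-fold higher, with a log2 fold change of 0.25 (SE 0.070, adjusted p = 0.00964). Its call was lost without shDNM1 replicate 3 (log2 fold change 0.22, adjusted p = 0.0595) and on the log2(TPM + 1) and log2(TPM + 0.1) scales with limma (adjusted p = 0.0518 and 0.0536).

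HBEGF, which encodes heparin-binding EGF-like growth factor, a ligand of EGFR and ERBB4 (ENSG00000113070, chromosome 5, 140332843 to 140346603, minus strand), had 5.28, 6.22 and 6.39 CPM in shDNM1 and 5.98, 6.56 and 6.01 CPM in shControl. The sets overlapped, and the log2 fold change of -0.05 (SE 0.17, adjusted p = 0.847) had a wide 95% interval, from 0.752-fold to 1.24-fold. BTC, which encodes betacellulin, another ligand of EGFR and ERBB4 (ENSG00000174808, chromosome 4), had 3, 2 and 2 counts in shDNM1 and 3, 7 and 3 counts in shControl, a ratio of 0.539 relative to library totals with an exact interval from 0.182 to 1.45 for counting error. EGF, the ligand gene after which the receptor is named (ENSG00000138798, chromosome 4), had 1, 0 and 0 counts in shDNM1 and 2, 0 and 0 counts in shControl, and with both totals under the floor of 3 counts no ratio is given.

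The shDNM1 and shControl ranges were separate for 4 of the 6 tested members (ERBB2, EREG, AREG and TGFA), as they were for 44.3% of all genes tested.

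**Figure D2:**
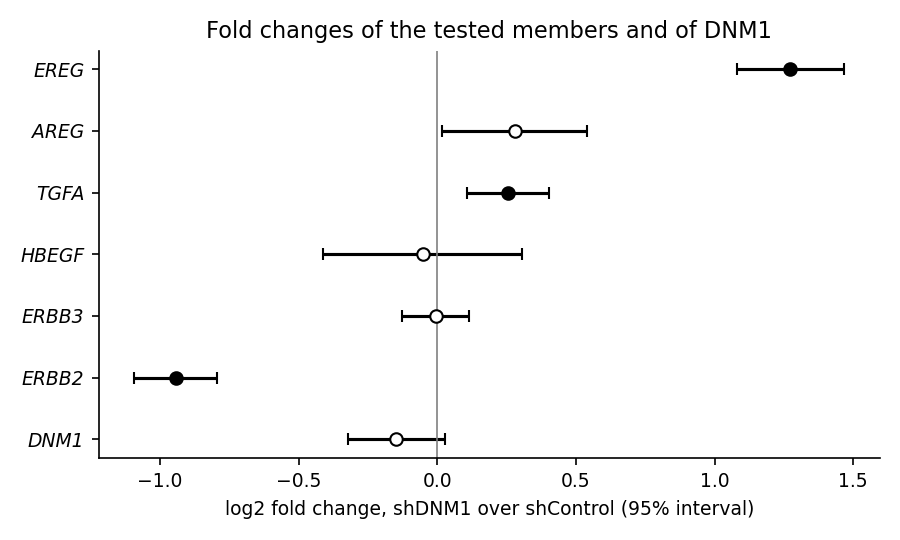
Log2 fold changes, shDNM1 over shControl, of the 6 tested members and of DNM1, with bars for the 95% interval of the edgeR fit and filled points for an adjusted p under 0.05. EREG at 1.27 and ERBB2 at -0.94 lie farthest from 0, TGFA at 0.25 is also called, and the interval of DNM1 includes 0.

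Levels of different genes were compared on the TPM scale, which divides by gene length. In the libraries labelled shDNM1 the order was ERBB3 (124 ± 5.40 TPM; SD, n = 3), TGFA (82.6 ± 5.64), EREG (44.3 ± 3.12), AREG (36.6 ± 0.519), ERBB2 (26.3 ± 1.96) and HBEGF (7.39 ± 0.654 TPM). In shControl it was ERBB3 (129 ± 2.78 TPM), TGFA (72.1 ± 2.47), ERBB2 (52.6 ± 0.453), AREG (31.4 ± 3.41), EREG (19.0 ± 2.56) and HBEGF (7.99 ± 0.327 TPM). Neighbours among these 6 did not overlap between libraries of a set, so EREG and ERBB2 exchanged places around AREG. Below them, BTC averaged 0.201 ± 0.0540 TPM in shDNM1 and 0.373 ± 0.184 TPM in shControl, and EGFR 0.0609 ± 0.0343 TPM in shDNM1 and 0.132 ± 0.0364 TPM in shControl. EGF and ERBB4 came last, and their values overlapped in both sets, as did those of EGFR and EGF in shDNM1.

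**Figure D3:**
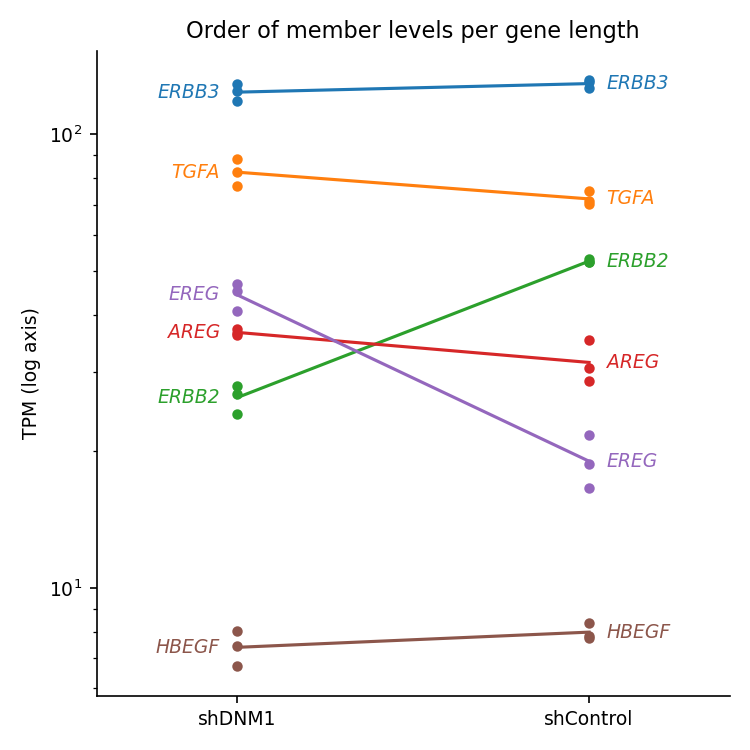
TPM of the 6 tested members on a log axis, with points for libraries and lines joining the means of shDNM1 (left) and shControl (right). EREG (44.3 TPM in shDNM1, 19.0 TPM in shControl) and ERBB2 (26.3 TPM in shDNM1, 52.6 TPM in shControl) cross AREG, while ERBB3 and TGFA stay at the top of both orders.

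The composition of the family on the TPM scale followed from these levels and is given as a description. The median log2 fold change of all genes tested was -0.07 on the log2(TPM + 1) scale and -0.01 in the main test. Sums compared between sets were not adjusted for this. The 4 receptor mRNAs summed to 156, 142 and 153 TPM in shDNM1 and 183, 180 and 184 TPM in shControl. Nearly all of this was ERBB3 and ERBB2, and ERBB2 made up 17.2%, 16.9% and 18.3% of it in shDNM1, against 28.7%, 29.5% and 28.4% in shControl. The ratio of ERBB3 to ERBB2 mRNA was 4.72 ± 0.234 in shDNM1 and 2.46 ± 0.0736 in shControl (SD, n = 3). The 6 ligand mRNAs summed to 166, 167 and 180 TPM in shDNM1 and 127, 126 and 140 TPM in shControl. EREG was 25.9% ± 1.42 of the ligand sum in shDNM1 and 14.5% ± 1.23 in shControl, and TGFA, the most abundant of the 6 ligand mRNAs in both sets, 48.3% ± 1.76 in shDNM1 and 55.1% ± 1.42 in shControl. EREG exceeded AREG in every shDNM1 library, at 1.22, 1.13 and 1.28 times its level, and stood below it in every shControl library, at 0.545, 0.656 and 0.617 times.

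The ERBB2 gene overlaps PGAP3 and MIEN1 on the opposite strand, at its 5′ and 3′ ends in the deposited coordinates, and holds the microRNA gene MIR4728, which had 0 counts in shDNM1 and 1 in shControl. PGAP3, which encodes a GPI-anchor remodelling enzyme, had 5.51, 6.78 and 7.15 CPM in shDNM1 and 11.96, 9.13 and 10.02 CPM in shControl (log2 fold change -0.68, SE 0.16, adjusted p = 0.00378). MIEN1, a gene often co-amplified with ERBB2, had 4.27, 4.70 and 2.81 CPM in shDNM1 and 6.59, 8.54 and 8.17 CPM in shControl (log2 fold change -0.99, SE 0.20, adjusted p = 0.00113). ERBB2 and both genes that overlap it on the other strand were thus lower in shDNM1. The sources used here do not say whether counting used strand, and without strand reads of ERBB2 and of these genes cannot be told apart. GRB7, an adaptor gene beside ERBB2 that does not overlap it, had a log2 fold change of 0.00 (SE 0.073, adjusted p = 0.998), and STARD3, on the other side, 0.05 (SE 0.072, adjusted p = 0.656). Of a list of 15 genes around ERBB2, 11 were tested, 3 fell (MIEN1, PGAP3 and ORMDL3) and 0 rose, with a median log2 fold change of -0.03, where 16.2% of all genes tested fell and 15.6% rose. Without shDNM1 replicate 1 or shControl replicate 2, 1 rose. The ORMDL3 call (log2 fold change -0.21, adjusted p = 0.0309) was lost without shDNM1 replicate 3 (adjusted p = 0.105) and without shControl replicate 1, 2 or 3 (adjusted p = 0.0843, 0.115 and 0.0737), and also with no low-count filter (0.0698) and with DESeq2 (0.0802). Among the 47 tested genes that start within 1000 kb of the ERBB2 start, 9 rose and 9 fell, where 31.9% of all genes tested were called.

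EREG and AREG lie on chromosome 4 with starts 80.0 kb apart, next to a chemokine cluster. Of 17 genes listed around them, 9 were tested, 2 rose and 3 fell (median log2 fold change -0.11), against 15.6% higher and 16.2% lower over all genes tested. CXCL3, which encodes a neutrophil-attracting chemokine, had 9.32, 10.8 and 10.6 CPM in shDNM1 and 4.83, 3.61 and 4.32 CPM in shControl, 2.41-fold higher (adjusted p = 1.67e-05). RASSF6, a RAS-association domain gene, fell by 0.57 on the log2 scale (SE 0.092, adjusted p = 0.000123), and CXCL8, which encodes interleukin 8, by 0.34 (SE 0.089, adjusted p = 0.00623). Genes of this stretch thus did not share a direction. The genes of this list called higher numbered 1 without shDNM1 replicate 1 or 2 or shControl replicate 2 or 3, with upper quartile scaling, with library size alone, on both log2(TPM) scales and at a threshold of 0.01.

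**Figure D4:**
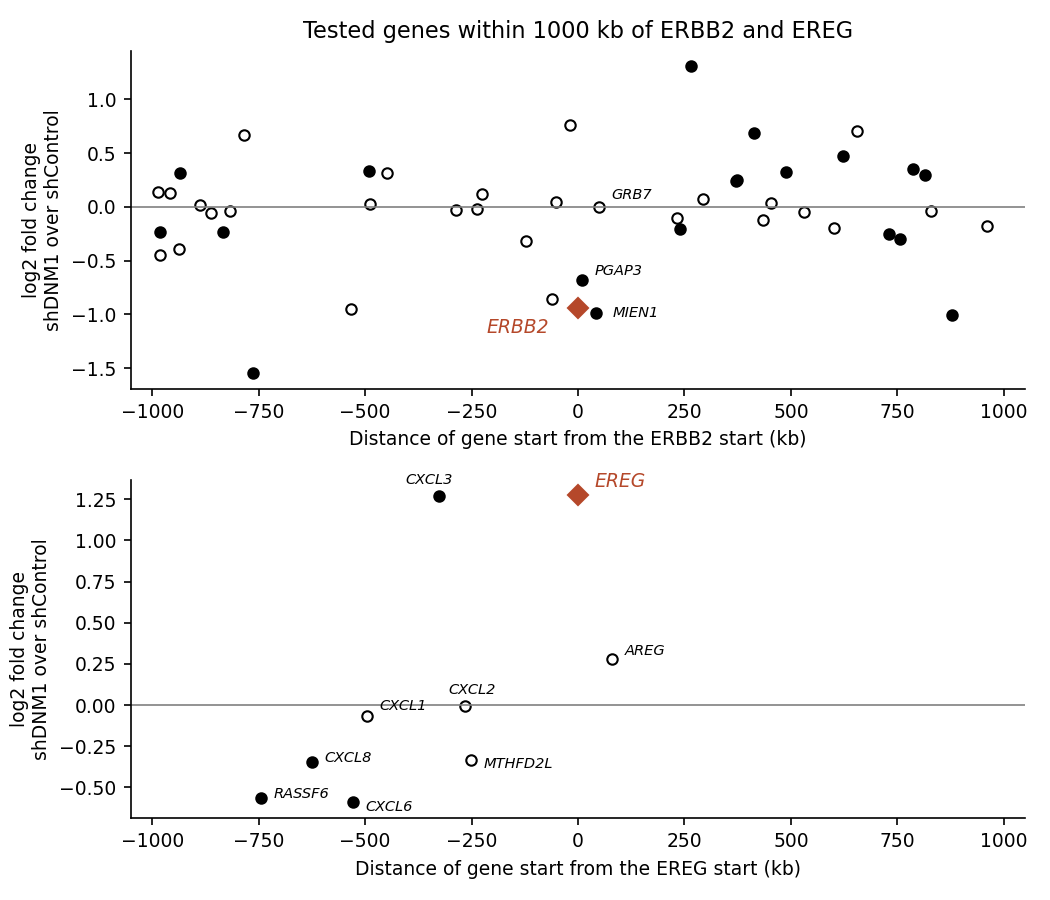
Log2 fold change, shDNM1 over shControl, of tested genes against the distance of their start from the start of ERBB2 (above) and of EREG (below); filled points have an adjusted p under 0.05, diamonds are ERBB2 and EREG, and some neighbours are named. PGAP3 and MIEN1, which overlap ERBB2, lie near it at -0.68 and -0.99, GRB7 lies at 0.00, and CXCL3, at 1.27, has about the value of EREG.

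The remaining EGF-like ligands were measured at low levels. NRG4, an ERBB4 ligand gene, had 91, 77 and 73 counts in shDNM1 and 57, 62 and 73 counts in shControl, with a log2 fold change of 0.36 (SE 0.19, adjusted p = 0.148). EPGN, which encodes epigen, had 2, 9 and 2 counts in shDNM1 and 6, 3 and 2 in shControl, and the neuregulin gene NRG2 had 4, 4 and 9 counts in shDNM1 and 7, 10 and 6 in shControl. NRG1, the main ERBB3 ligand gene, and NRG3 had 0 counts in all 6 libraries, which allows up to 0.0766 CPM over the 3 shDNM1 libraries.

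Of 12 tested genes listed for ligand processing, 3 rose, 3 fell and 6 did not pass (median log2 fold change 0.00). Among all genes tested, 15.6% rose and 16.2% fell. The list is not of proteases alone, and the effect of each listed gene on ligand release was not tested. RHBDF1, an inactive rhomboid that escorts the sheddase ADAM17, had 104, 87.8 and 104 CPM in shDNM1 and 53.4, 52.4 and 51.3 CPM in shControl, 1.89-fold higher (adjusted p = 6.89e-08). The sets were far apart and shDNM1 replicate 2 was the lowest of its set. ADAM9 and ADAM10, metalloproteases that cleave membrane proteins, fell by 0.55 (SE 0.079, adjusted p = 3.39e-05) and 0.31 (SE 0.061, adjusted p = 0.000759) on the log2 scale. ADAM17, named after its values were seen because it sheds AREG, EREG, TGFA and HBEGF, was 1.16-fold higher (adjusted p = 0.0361). That call was lost without shDNM1 replicate 3 (adjusted p = 0.203) and without shControl replicate 1, 2 or 3 (adjusted p = 0.123, 0.105 and 0.0684). It was also lost with upper quartile scaling (0.0525), with library size alone (0.0863) and on the log2(TPM + 1) and log2(TPM + 0.1) scales with limma (adjusted p = 0.251 and 0.250).

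Of 20 tested receptor adaptor and effector genes, 3 rose, 3 fell and 14 did not pass (median log2 fold change 0.01), shares close to the 15.6% and 16.2% of all genes tested. SHB, an SH2 adaptor gene, was 1.72-fold higher (adjusted p = 5.63e-06) and CRK, another adaptor gene, 1.42-fold higher (adjusted p = 6.06e-06), whereas the kinase gene SRC fell by 0.55 (SE 0.099, adjusted p = 0.000343). Without shDNM1 replicate 1, 6 members rose. Of 18 tested genes listed for receptor restraint, 5 rose and 5 fell (median log2 fold change 0.02), beside the same 15.6% higher and 16.2% lower over all genes. The effect of each listed gene on the receptors was not tested. CBL, which encodes the ubiquitin ligase that marks EGFR for degradation, had 282, 296 and 296 CPM in shDNM1 and 212, 214 and 211 CPM in shControl, 1.37-fold higher (adjusted p = 9.66e-06). The phosphatase gene PTPN12 and UBASH3B, a gene of a phosphatase that binds CBL, fell by 0.38 (SE 0.066, adjusted p = 0.000220) and 0.49 (SE 0.090, adjusted p = 0.000398).

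Of 28 tested genes of receptor endocytosis and endosomal sorting, 14 rose, 1 fell and 13 did not pass, with a median log2 fold change of 0.19. Over all genes tested, 15.6% rose, 16.2% fell and the median was -0.01. The clathrin light chain gene CLTB was 1.53-fold, the membrane-binding annexin gene ANXA2 1.29-fold and the AP2 adaptor subunit gene AP2A1 1.27-fold higher (adjusted p = 1.51e-05, 9.29e-05 and 0.000988). GRB10, an adaptor gene that binds activated receptors, was the one that fell, by 0.49 (SE 0.12, adjusted p = 0.00547). On the log2(TPM + 1) and log2(TPM + 0.1) scales with limma, 9 of the list rose. The number was 10 to 16 when each library was left out in turn, and 10 at a threshold of 0.01. Because the list was chosen with earlier results of these data known, its share beside all genes is a description only.

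Among 17 genes of the RAS, RAF, MEK and ERK core and its RAS inactivators, 3 rose and 5 fell (median log2 fold change -0.04), where 15.6% of all genes tested rose and 16.2% fell. DAB2IP, a RAS GTPase-activating protein gene, was 1.47-fold higher (adjusted p = 2.66e-06), whereas SPRED1 and NF1, which restrain RAS together, fell by 0.47 (SE 0.071, adjusted p = 5.71e-05) and 0.36 (SE 0.063, adjusted p = 0.000247). Of 16 genes known as transcriptional outputs of ERK, 4 rose and 4 fell (median log2 fold change -0.02), against those same shares. EPHA2, an ephrin receptor gene, was 2.07-fold higher (adjusted p = 3.63e-09), while the feedback inhibitor gene SPRY1 fell by 1.28 (SE 0.095, adjusted p = 1.65e-08) and PHLDA1 by 0.78 (SE 0.063, adjusted p = 4.42e-08). The KEGG ErbB pathway of the deposited annotation, examined after the data were seen and holding the called members ERBB2, EREG and TGFA, had 67 tested genes, of which 12 rose and 16 fell, 41.8% in all against 31.9% of all genes tested, with a median log2 fold change of -0.04. These are mRNA levels, and neither receptor protein nor phosphorylation was measured in these files.

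**Figure D5:**
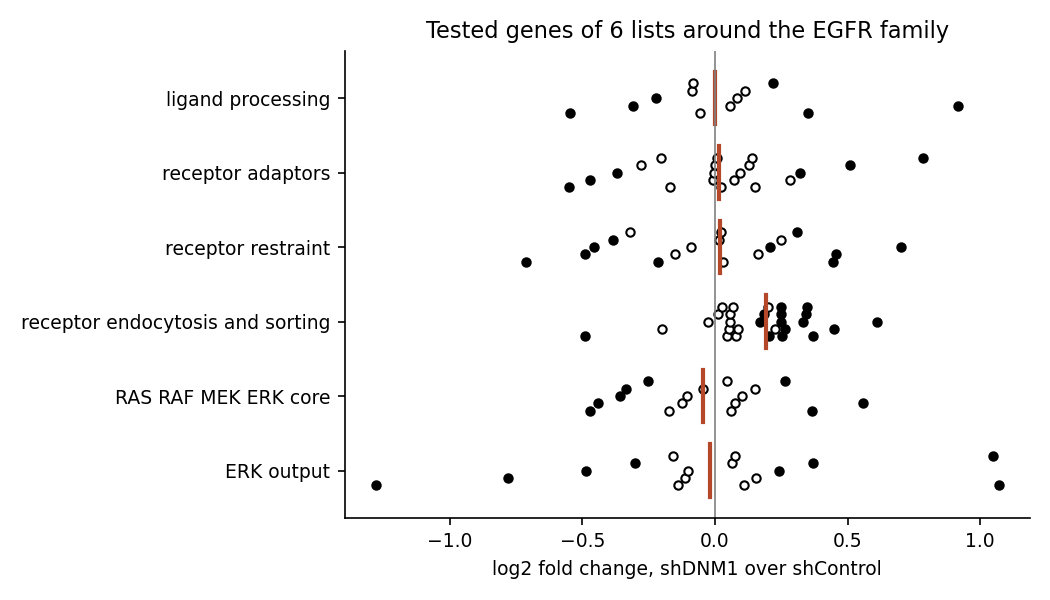
Log2 fold change, shDNM1 over shControl, of each tested gene of 6 lists. These are ligand processing, receptor adaptors, receptor restraint, receptor endocytosis, the RAS to ERK core and ERK output. Filled points have an adjusted p under 0.05, and the red bar is the list median. The endocytosis list has its median at 0.19 and the other medians lie from -0.04 to 0.02.

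The tested genes whose pattern over the 6 libraries was most like that of ERBB2, by Euclidean distance between log2 CPM centred on each gene's mean, were SORT1, ACVR2B and PPP6R1, at distances of 0.119, 0.127 and 0.132. Those most like EREG were CHRND, PTAFR and ZNF385A, at 0.121, 0.133 and 0.142. With 2 sets of libraries, this likeness rests mainly on a similar fold change, from -0.99 to -0.92 for the genes near ERBB2 and from 1.22 to 1.245 for those near EREG.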

How the data were processed

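RNA of 6 SW620 libraries was compared as 3 shDNM1 against 3 shControl libraries, grouped by their titles. The deposited table holds raw read counts per gene that the authors made on GRCh38, a build named in the submitters' processing notes. Not given in the sources used here are the aligner, counter, strand setting and annotation. Values in the authors' TPM file were handled as a score, since the columns as deposited sum to more than TPM implies unless the 453 names that stand on several lines with identical values are collapsed. This was done in both tables. Per-sample columns left unused numbered 0.

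Counts were tested with edgeR 4.0.16 in R 4.3.3 (filterByExpr, TMM scaling, quasi-likelihood F test, two-sided, no covariate). Benjamini-Hochberg adjustment ran over all 16744 genes, and every adjusted p of a gene is from this test unless another setting is named. The SE is the log2 fold change divided by the square root of F. The test was checked on simulated counts with the same spread setting for every gene and no batch effect. That check therefore says nothing about batch. Because batch and group coincide, no batch term could be fitted. Members and gene lists were chosen with earlier results of these data known. All members were named, with up to 3 called genes of smallest p for each list, and GRB10, ADAM17, GRB7 and STARD3 were chosen after their values were seen. Intervals of single counts are exact and cover counting error only. Alternatives used limma 3.58.1 and DESeq2 1.42.0, other scalings and filters, a threshold of 0.01, the replicate number as a block, and each library left out.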

Additional observations from a re-analysis of the deposited data

How the results depend on the processing

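Across 18 alternatives, ERBB2 was called lower and EREG called higher in every one, with log2 fold changes from -0.999 to -0.907 and from 1.18 to 1.37. The number of members called lower was 1 throughout. The number called higher was 2 except on the log2(TPM + 1) and log2(TPM + 0.1) scales with limma, where it was 1 and 1, and ranged from 1 to 2 when each library was left out in turn, because TGFA was not called. AREG was not called in any, and the threshold of 0.01 could not have called it. ERBB3, which was not called, changed sign with RLE size factors (0.0091), a CPM filter (0.0072) and DESeq2 (0.0091), and without shDNM1 replicate 2 or 3 or shControl replicate 3, where it was 0.0032, 0.0005 and 0.0025, within a range of -0.0158 to 0.0032 when each library was left out. HBEGF, also not called, did so without shDNM1 replicate 1, in a range of -0.1043 to 0.0293. The cause was not tested. All genes called numbered 5337, against 3503 at a threshold of 0.01 and 3990 to 5890 with 1 library left out. Deviations of same-numbered libraries had weak correlations of mixed sign (0.102, 0.0634 and -0.0330 for numbers 1, 2 and 3). Those of differently numbered libraries ran from -0.0979 to 0.0334. These values do not settle whether the replicate number pairs the libraries. With the replicate block, 6080 genes were called, 2 members were higher and 1 lower, and ERBB2 and EREG stayed called. Depth limits EGFR, ERBB4, BTC and EGF, for which single libraries held at most 7 counts.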
